A study of Mus musculus with 38 samples.

Results

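Whole testes of (B6-ChrXTMSM x B6-Chr1MSM)F1 males, called F1 here, were compared between 5 and 7 days postpartum (dpp), the days on which the first wave of spermatogonia starts to differentiate. All 11 F1 arrays of the series were members, 3 at 5 dpp and 8 at 7 dpp, of 38 arrays in all, and each was placed by its label alone. Each array was 1 male. F1 males have a mother of the B6-ChrXTMSM strain, a C57BL/6J (B6) strain whose distal X chromosome comes from MSM, a Japanese wild mouse strain of Mus musculus molossinus. Their father is of the B6-Chr1MSM strain, so that they are heterozygous for an MSM chromosome 1. Both age groups share this genotype and received no treatment. B6, B6-ChrXTMSM, MSM and B6-ChrXMSM, a B6 strain with a whole MSM X chromosome, had 3 males at each age and serve for comparison where stated. According to the methods of the study, more F1 males were taken at 7 dpp because their profiles varied. No subgroup was formed among the 8, since the labels give none. RNA came from the whole organ, so fewer cells of a type and less RNA per cell cannot be told apart in any value given here.

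Spermatogonia lie on the basement membrane of the seminiferous cords among the Sertoli cells. In the days after birth, undifferentiated spermatogonia that depend on GDNF from Sertoli cells give rise, under retinoic acid, to KIT-positive differentiating spermatogonia, and these later enter meiosis. The piRNA pathway, which silences transposons in germ cells, and the cohesin and synaptonemal complex genes of meiosis are switched on in the germ cells, while peritubular cells and fibroblasts around the cords make the collagen matrix.

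The F1 arrays varied more than those of the comparison strains. The pooled SD over the probe sets tested was 0.20 on the log2 scale among the 8 males of 7 dpp and 0.187 among the 3 of 5 dpp, against 0.116 and 0.109 in B6 at 5 and 7 dpp. MSM at 5 dpp came closest among the comparison strains, with 0.163. The spread was not particular to F1, since XS39-tel males of 5 dpp, a congenic group not used for other comparisons here, had 0.247. The paper describes its congenic strain as B6 with only a distal interval of the X chromosome from MSM. Array medians lay between 2.63 and 2.71 in F1 males. On the first principal component, which held 48.8% of the variance, the males of 5 dpp lay between -32.6 and -23.3 and those of 7 dpp between -5.91 and 32.5, with males 3 and 4 nearest to the 5 dpp group and male 5 farthest from it. Males 1 and 2 of 7 dpp stood apart on the second component (19.98% of the variance), at 23.4 and 22.1 against a range of -15.5 to 6.66 for the other 6.

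Germ cell genes rose and matrix genes fell between the ages. Values are RMA signals in log2 units, and a probe set was called if its Benjamini-Hochberg adjusted p in limma was under 0.05 and its fold change at least 1.5. Of 16749 probe sets tested, 495 (2.96%) were called higher and 439 (2.62%) lower at 7 dpp (5.58% in either direction), which represent 433 and 340 genes. No gene had calls in both directions. The median change over all probe sets tested was -0.00. At least a 2-fold change was seen for 152 of the calls that rose and 81 of those that fell. The groups did not overlap (all 8 males of 7 dpp on one side of all 3 males of 5 dpp) in 383 of the calls that rose and 344 of those that fell, which is 2.29% and 2.05% of all probe sets tested. With or without a call, the groups did not overlap in 8.9% of the probe sets with 7 dpp higher and in 7.31% with 7 dpp lower. The counts rested in part on single males of 5 dpp. Without male 2 of 5 dpp, 234 probe sets were called higher and 185 lower. Without male 3 of 5 dpp, the counts were 329 and 224. Of 84 called probe sets (82 genes) named below, 26 were lost without male 2 of 5 dpp, 22 without male 3 and 4 without male 1.

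Among called genes whose groups did not overlap and whose higher group mean was above log2 of 20, the largest rise was that of Crabp1, which encodes a cytosolic retinoic acid binding protein. Its signal was 3.17, 2.02 and 2.62 in the 3 males of 5 dpp, and at 7 dpp its lowest, median and highest signals were 4.56, 5.44 and 6.75. Every male of 7 dpp was above every male of 5 dpp, and the difference was 2.90 (SE 0.39, adjusted p 0.00266 in limma). The 5 dpp mean lay under the signal minimum of log2 of 10, so that Crabp1 was tested only through its 7 dpp signal. Stra8, the gene induced by retinoic acid that is needed for meiotic initiation, was next in the order. It measured 4.61, 3.39 and 3.86 at 5 dpp and from 5.64 to 7.33 (median 6.54) at 7 dpp, a difference of 2.59 (SE 0.31, adjusted p 0.00266 in limma). Sycp3, a component of the axial elements of the synaptonemal complex, went from 4.62, 4.0 and 4.29 to a range of 5.50 to 7.39 (median 6.60). Its rise was 2.20 (SE 0.31, 4.61-fold, adjusted p 0.00299 in limma). Tex12, a protein of the central element of the same complex, had 4.23, 3.53 and 3.81 at 5 dpp and 5.18 to 6.71 (median 5.97) at 7 dpp. Sohlh1, a basic helix-loop-helix factor of differentiating spermatogonia, had 3.43, 2.50 and 2.95 at 5 dpp and 4.27 to 5.33 (median 4.94) at 7 dpp, and its 5 dpp mean was also under the minimum. The groups did not overlap for any of these genes, which the rule for choosing them required. The 10 largest rises under this rule were completed by 4 X-linked genes, Tex11 (1.87), Tktl1 (1.86), Nxf2 (1.85) and Taf9b (1.79), and by Rbm46 (1.79), which encodes an RNA-binding protein of germ cells. The F1 males of both ages carry the same X chromosome.

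**Figure D1:**
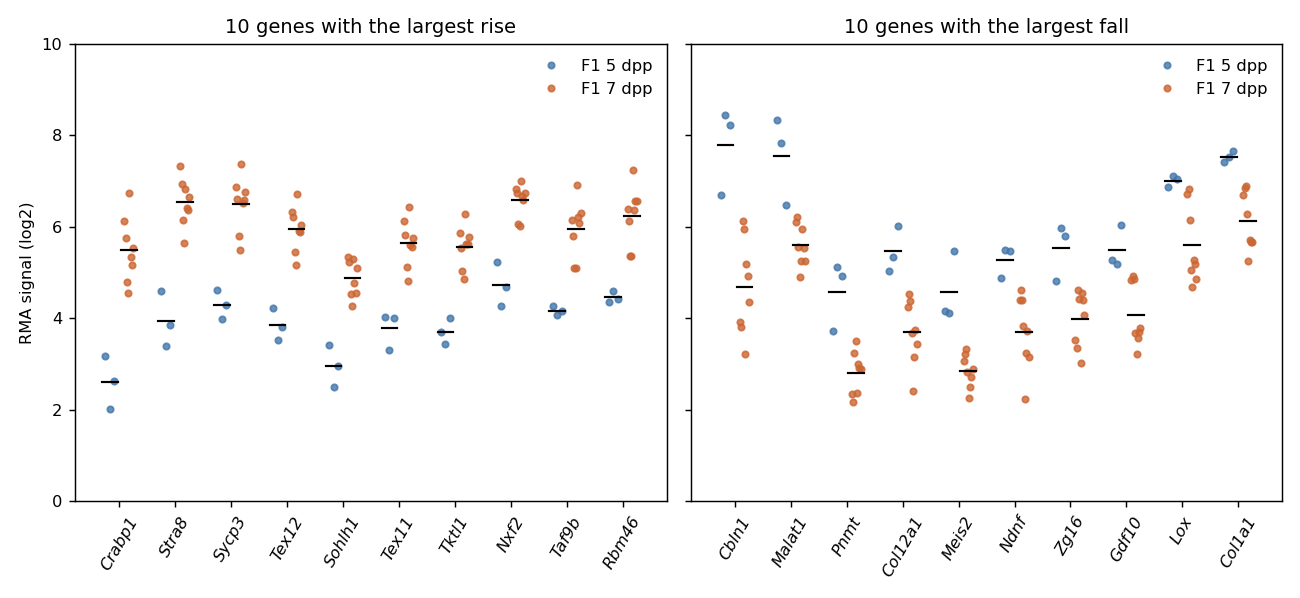
RMA signal (log2) of the 10 genes with the largest rise (left) and the 10 with the largest fall (right) in F1 testes. Each point is 1 male, blue for 5 dpp (3 males) and orange for 7 dpp (8 males), and black lines are group means. These genes were picked among calls whose groups do not overlap and whose higher group mean is above log2 of 20, so the separation is part of the choice. Cbln1 has the widest range among the males of 7 dpp, from 3.23 to 6.14.

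Since genes of germ cells rose together, their promoters were read for short motifs. RefSeq (GRCm38.p6) listed a promoter, from 250 bases before to 50 bases after the start, for 9 of these 10 genes. The motifs searched, on both strands, were the E-box CACGTG, the E2F element GGCGGGAA, and CNCCTCAG, an element bound by STRA8. An E-box was found in 6 of the 9 promoters, the E2F element in 1 and the STRA8 element in 2. An E-box stood in 7.24% of all 27025 promoters in the table, in 10.8% of the promoters of the genes tested, in 16.8% of those of genes called higher and in 4.33% of those of genes called lower at 7 dpp. For the STRA8 element the shares were 9.21% of the promoters of genes tested, 12% of those called higher and 9.06% of those called lower. For the E2F element they were 4.4%, 6.42% and 1.97%. The promoters of Crabp1 and Stra8, the genes with the largest rises, held none of the motifs in this window. That of the X-linked Nxf2 held 5 E-boxes in the RefSeq sequence, which is that of B6. A match is a run of letters and not a bound site.

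The promoters of 4 autosomal genes of the set are printed, because each holds at least 1 of the motifs. Capitals mark the matches on either strand.
Sycp3 (chr10:88459337-88459636, plus strand): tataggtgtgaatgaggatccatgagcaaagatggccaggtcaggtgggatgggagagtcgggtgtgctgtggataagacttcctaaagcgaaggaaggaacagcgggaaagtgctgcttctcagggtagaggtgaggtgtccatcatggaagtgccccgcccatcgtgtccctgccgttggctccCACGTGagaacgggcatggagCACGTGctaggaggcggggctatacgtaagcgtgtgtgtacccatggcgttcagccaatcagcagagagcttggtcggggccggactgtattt
Tex12 (chr9:50561219-50561518, minus strand): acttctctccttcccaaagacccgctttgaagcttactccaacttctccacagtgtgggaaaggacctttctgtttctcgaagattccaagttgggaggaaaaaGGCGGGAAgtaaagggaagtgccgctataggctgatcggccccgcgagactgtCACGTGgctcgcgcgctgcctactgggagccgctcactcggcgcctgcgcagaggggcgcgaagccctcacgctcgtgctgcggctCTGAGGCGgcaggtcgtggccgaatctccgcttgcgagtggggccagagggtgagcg
Sohlh1 (chr2:25847199-25847498, minus strand): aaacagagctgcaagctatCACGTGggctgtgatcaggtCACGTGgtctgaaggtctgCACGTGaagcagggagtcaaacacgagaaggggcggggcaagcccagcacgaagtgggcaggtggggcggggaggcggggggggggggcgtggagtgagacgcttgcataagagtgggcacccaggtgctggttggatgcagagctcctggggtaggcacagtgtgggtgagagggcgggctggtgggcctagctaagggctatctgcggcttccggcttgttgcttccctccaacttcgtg
Rbm46 (chr3:82876434-82876733, minus strand): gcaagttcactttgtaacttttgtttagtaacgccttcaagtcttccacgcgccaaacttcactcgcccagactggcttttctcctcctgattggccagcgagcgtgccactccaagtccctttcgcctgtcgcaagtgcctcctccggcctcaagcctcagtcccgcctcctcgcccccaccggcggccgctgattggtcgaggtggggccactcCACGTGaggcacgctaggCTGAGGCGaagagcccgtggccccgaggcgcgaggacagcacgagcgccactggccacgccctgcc
Counted from the start site, the E-boxes of Sycp3 began at -64 and -43 and those of Sohlh1 at -231, -211 and -192. In Tex12 the E2F element, the E-box and the STRA8 element began at -146, -93 and -7, and in Rbm46 the E-box and the STRA8 element at -34 and -16.

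Lists of genes by cell type and process were then read through the array, with 1 probe set per gene, that of the highest mean over the F1 males. Among genes of germ cell identity and the piRNA pathway, 18 of 25 were tested, and 17 of them (94.4%) were called higher and none lower, beside 2.96% called higher among all probe sets. Their median change was 1.34, and 2 of the 18 passed the filter on low signals only through the 7 dpp group. Of the 16 that passed at both ages, 15 were called higher. Ddx4, the germ cell RNA helicase, was measured at 6.34, 6.32 and 6.52 at 5 dpp and from 7.06 to 8.28 (median 7.86) at 7 dpp, a rise of 1.31 (SE 0.23, adjusted p 0.00476 in limma). Dazl, an RNA-binding protein of germ cells, stood at 7.61, 7.32 and 7.37 and then at 8.06 to 9.23 (median 8.93), a rise of 1.37 (SE 0.23). Neither gene had overlapping groups. Genes that act in piRNA production and transposon silencing rose by 0.70 to 1.73, with Piwil2 (one of the PIWI proteins) at 1.73, Tdrd9 at 1.72, Rnf17 at 1.66, Mael at 1.62, Gtsf1 at 1.47, Asz1 at 1.37, Mov10l1 at 1.22, Tdrd5 at 1.19, Exd1 at 1.11, Tdrkh at 1.02 and Pld6, a mitochondrial nuclease, at 0.70. Ddx25 (1.53), Tex101 (1.41), Tex19.1 (1.27) and Dnd1 (0.88) made up the rest of the calls. The remaining gene, Tdrd7, a tudor domain protein, had a change of 0.25 and was not called. Without male 2 of 5 dpp, Mov10l1 and Exd1 lost their calls, with adjusted p of 0.0674 and 0.0584 in limma.

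Of 35 genes of meiotic prophase, 16 were tested. Of these, 12 (75%, beside 2.96% of all probe sets) were called higher and none lower, and the median change was 1.29. Of the 16, 3 passed the filter only through the 7 dpp group. Of the 13 that passed at both ages, 9 were called higher. The 12 genes called were the axis and synaptonemal complex genes Sycp3, Tex12, Sycp2 (1.67), Sycp1 (1.53), Syce1 (1.39), Hormad1 (1.35) and Syce3 (1.24), the meiotic cohesin subunits Stag3 (1.5) and Smc1b (1.15), and Tex11 (1.87), Hsf2bp (0.81) and Tex15 (0.80), which act in recombination. Sycp1, which encodes the transverse filament, had 4.54, 4.52 and 4.99 at 5 dpp and 5.51 to 6.94 (median 6.30) at 7 dpp. The recombinase gene Dmc1 was at 3.74, 3.78 and 4.07 and then at 3.76 to 4.58 (median 4.01), groups that overlap, with a change of 0.24 (SE 0.16, adjusted p 0.318 in limma). A second probe set of Dmc1 was called higher. Rec8, Prdm9 and Meioc stayed below the signal minimum at both ages. The groups overlapped for Tex15, and its call was lost in 6 of 21 alternatives, with adjusted p of 0.0789, 0.119 and 0.0724 in limma without male 1, 2 or 3 of 5 dpp.

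**Figure D2:**
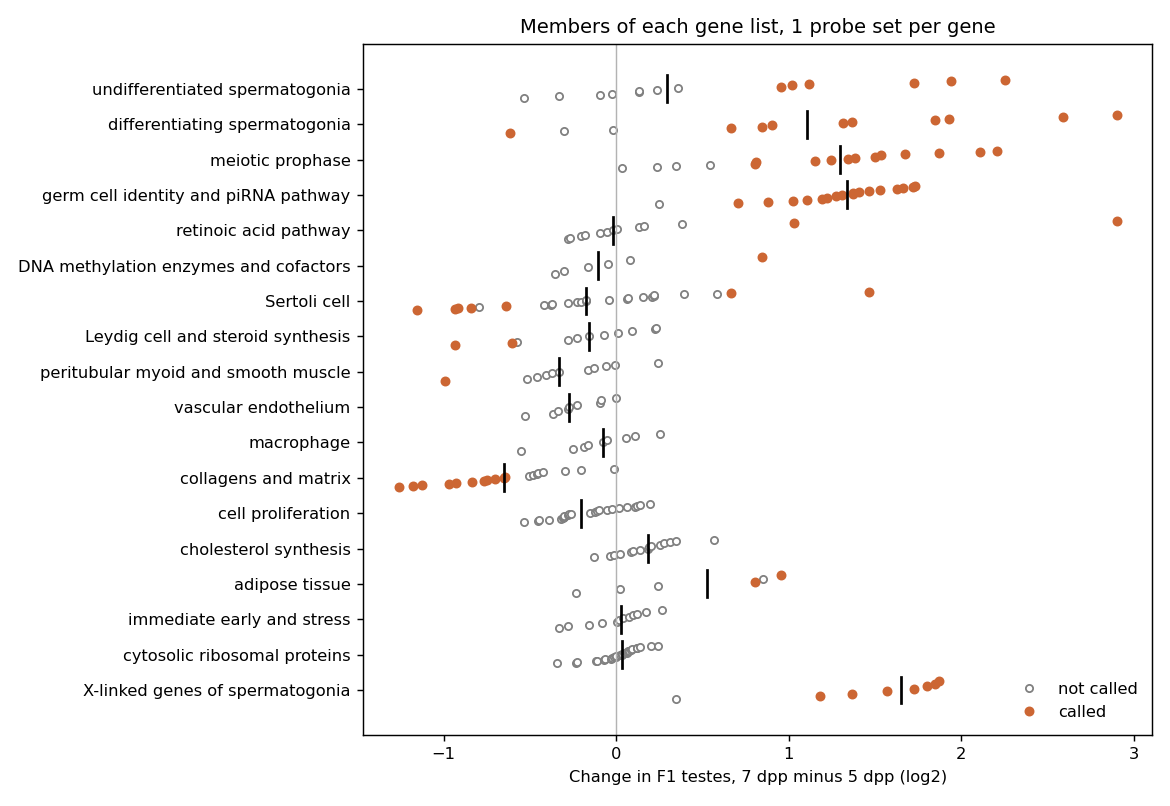
Change between 5 and 7 dpp (log2, 7 dpp minus 5 dpp) of each tested member of each gene list in F1 testes, 1 point per gene. Filled points were called and open points were not, and the black bar is the median of the list. The germ cell and piRNA list and the meiotic list lie to the right of 0, and collagens and matrix to the left. Both spermatogonial lists have members on each side of 0, and ribosomal protein genes lie close to 0.

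The spermatogonial lists were split. The list of differentiating spermatogonia held 16 symbols, among them the older names Dmrt6 (for Dmrtb1) and Ngn3 (for Neurog3). Of the 16, 12 were tested. Of these, 9 (75%) were called higher and 1 (8.33%) lower, beside 2.96% and 2.62% of all probe sets. The median was 1.11, and 2 genes passed the filter only through 7 dpp. Of the 10 that passed at both ages, 7 were called higher and 1 lower. Besides Crabp1, Stra8, Sohlh1 and Nxf2, the calls that rose were Rhox13 (1.37), Uchl1 (1.31), Sohlh2 (0.90), Dnmt3b (0.85) and Kit (0.67). Kit, the receptor that marks differentiating spermatogonia and is also present in Leydig cells, measured 5.46, 5.39 and 5.42 at 5 dpp and 5.61 to 6.68 (median 6.08) at 7 dpp. Its groups did not overlap, and its change had an SE of 0.18 and an adjusted p of 0.0241 in limma, a call lost in 5 of 21 alternatives. These included the removal of male 1, 2 or 3 of 5 dpp, with adjusted p of 0.0516, 0.0974 and 0.0879, and of male 5 of 7 dpp, where the change was 0.58 and under the fold threshold. Dnmt3b and Rhox13 lost their calls without male 2 of 5 dpp (adjusted p 0.0622 and 0.0714 in limma) and without male 3 (0.0540 and 0.0572). Ccnd2, a D-type cyclin that Sertoli cells and other somatic cells also express, fell by 0.61 (SE 0.12, adjusted p 0.00647 in limma), and its change was under the fold threshold without male 2 of 5 dpp (-0.57), male 2 of 7 dpp (-0.58) or male 5 of 7 dpp (-0.57).

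Among undifferentiated spermatogonia, 14 of 20 genes were tested. Of these, 6 (42.9%, beside 2.96% of all probe sets) were called higher and none lower, and the median change was 0.30. The genes called were Lin28a (2.26), an RNA-binding protein that blocks let-7 maturation, Neurog3 (1.94), Sox3 (1.72), Sall4 (1.12), Taf4b (1.02) and Zbtb16 (0.96). Lin28a stood at 1.33, 1.47 and 1.51 at 5 dpp, under the signal minimum, and at 2.76 to 4.37 (median 3.61) at 7 dpp. Lin28a and Neurog3 were 2 of the 3 members that passed the filter only through the 7 dpp group. Of the 10 that passed at both ages, 4 were called higher, and 1 other member passed only through 5 dpp. Zbtb16, the zinc finger factor also called PLZF, had 4.40, 4.27 and 4.37 and then 4.5 to 5.83 (median 5.41). Its call was lost without male 2 or 3 of 5 dpp (adjusted p 0.0874 and 0.0707 in limma), and that of Neurog3 without male 2 (0.0508). The other 8 genes tested were not called. The receptor gene Gfra1 was at 4.08, 4.22 and 4.44 and then at 4.04 to 4.70 (median 4.38), a change of 0.13 (SE 0.12, adjusted p 0.466 in limma). Etv5, a target of GDNF signalling, changed by -0.02 (SE 0.10, adjusted p 0.901 in limma). The rest of the 8 were Egr4 (0.36, adjusted p 0.0515 in limma), Foxo1 (0.24), Ret (0.13), Bcl6b (-0.10), Id4 (-0.33) and Lhx1 (-0.53, adjusted p 0.0541 in limma).

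The 8 males of 7 dpp were far from alike in these genes. The mean signal of the piRNA and germ cell list was 4.64, 4.39 and 4.67 in the males of 5 dpp, and ranged from 5.25 in male 4 to 6.34 in male 5 at 7 dpp, with a median of 5.84. For the meiotic list it was 4.36, 4.17 and 4.42 and then 4.90 in male 4 to 6.07 in male 5. All males of 7 dpp were above all of 5 dpp in both lists. Males 3 and 4 were the lowest and males 5 and 1 the highest in each of them. In the list of undifferentiated spermatogonia male 4 of 7 dpp, at 4.36, lay below male 3 of 5 dpp, at 4.40. Means over a list are given as a description, since their members were chosen for these cells.

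**Figure D3:**
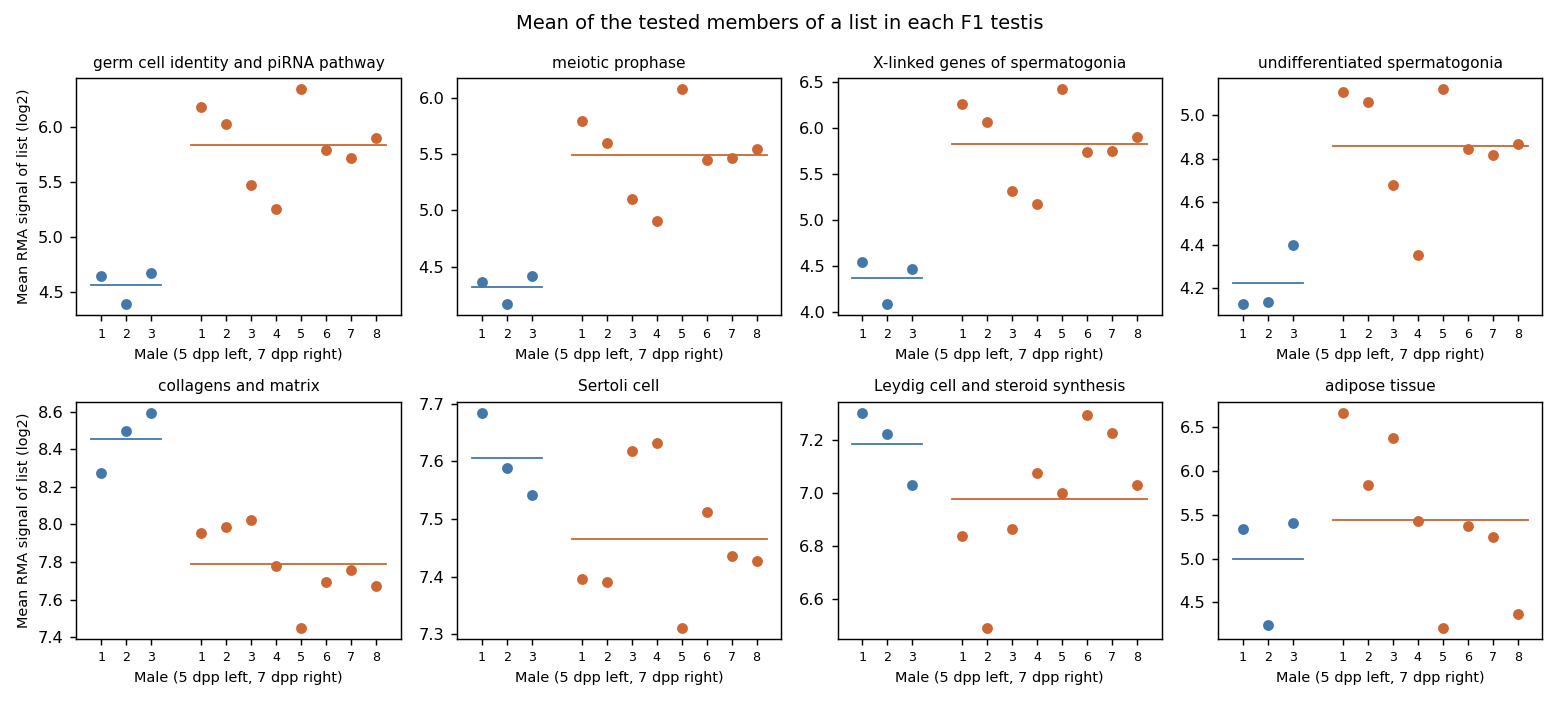
Mean RMA signal (log2) of the tested members of 8 gene lists in each F1 testis, with the 3 males of 5 dpp in blue and the 8 of 7 dpp in orange. Lines are group means, and each panel has its own vertical scale. The germ cell lists are lowest in males 3 and 4 and highest in male 5 among the males of 7 dpp, whereas the adipose list spans 4.21 to 6.66 in those males.

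Genes of retinoic acid metabolism and signalling did not move together. Of 22 genes 13 were tested, and 2 (15.4%, beside 2.96% of all probe sets) were called higher. These were Crabp1, which passed the filter only through the 7 dpp group, and Rbp4, which encodes the retinol carrier protein (1.03). Rbp4 was no longer called without male 2 or 3 of 5 dpp (adjusted p 0.122 and 0.0557 in limma). The median change was -0.02. Aldh1a1, which makes retinoic acid in Sertoli cells, was at 11.09, 11.09 and 11.16 and then at 10.89 to 11.16 (median 11.04), and its change was -0.09 (SE 0.07, adjusted p 0.366 in limma). Cyp26b1, which degrades retinoic acid, was at 7.52, 7.28 and 6.79 and then at 6.58 to 7.20 (median 6.96), with a change of -0.27 (SE 0.17, adjusted p 0.264 in limma). The groups of both genes overlapped. Among 6 tested genes of DNA methylation, only the de novo methyltransferase gene Dnmt3b was called, with 6.17, 6.14 and 6.14 at 5 dpp and 6.41 to 7.57 (median 6.97) at 7 dpp. Its partner Dnmt3a changed by -0.30 (SE 0.08, adjusted p 0.0186 in limma), under the fold threshold, and 1 of its other probe sets moved the opposite way.

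Collagens and other matrix genes fell. All 19 tested of 20 had a change below 0, 11 (57.9%) were called lower and none higher, beside 2.62% called lower among all probe sets, and the median was -0.65. The calls were Postn (-1.26), Col5a2 (-1.18), Lum (-1.12), Col6a2 (-0.97), Col5a1 (-0.93), Col6a1 (-0.83), Col15a1 (-0.77), Fbln1 (-0.75), Col1a1 (-0.70), Col1a2 (-0.65) and Fn1 (-0.64). Postn, a matrix protein of fibroblasts, was at 8.22, 8.77 and 9.13 and then at 6.52 to 7.88 (median 7.53), with an SE of 0.26 and an adjusted p of 0.00835 in limma. Col5a2, a fibrillar collagen chain, was at 9.30, 9.71 and 9.77 and then at 7.66 to 8.93 (median 8.33). Col6a1, a chain of the microfibrillar collagen, was at 8.58, 8.79 and 8.92 and then at 7.59 to 8.22 (median 7.92), with an SE of 0.12 and an adjusted p of 0.00266 in limma. None of these 3 genes had overlapping groups. Postn and Col1a2 lost their calls without male 2 of 5 dpp (adjusted p 0.0518 and 0.0662 in limma) and without male 3 (0.0558 and 0.0701), and Fn1 had -0.55, under the fold threshold, without male 3. With males 1 to 3 of 7 dpp alone, Col1a2 had a change of -0.33. Col1a1 has a second probe set that fell by 1.41 and is among the largest falls. Male 5 of 7 dpp, highest in the germ cell lists, had the lowest mean of the matrix list, at 7.45, but males 3 and 4 were not together at its other end, with 8.03 and 7.78. The mean of the Sertoli list was lowest in male 5 (7.31) and highest in males 3 and 4 (7.62 and 7.63), the reverse of their order in the germ cell lists.

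The 10 largest falls were led by Cbln1, a secreted protein of the cerebellin family. It was at 6.69, 8.45 and 8.24 at 5 dpp, and at 3.23 to 6.14 (median 4.64) at 7 dpp, without overlap. The change was -3.10 (SE 0.58, 8.57-fold, adjusted p 0.00579 in limma), and both other probe sets of the gene were called lower. Malat1, a nuclear long noncoding RNA, was second by 1 probe set, with 8.34, 7.84 and 6.47 and then 4.91 to 6.21 (median 5.56), a change of -1.95. With males 1 to 3 of 7 dpp alone its change was -1.59 and was not called (adjusted p 0.0664 in limma). Its 6 other probe sets had changes between -0.24 and -1.01, and none of them was called. In 1 of these, males 1 to 3 of 7 dpp lay at 9.68 to 10.28, male 4 at 9.37 and males 5 to 8 at 7.59 to 8.84. Pnmt, which methylates noradrenaline, had 3.72, 5.12 and 4.92 and then 2.17 to 3.51 (median 2.91). Then followed Col12a1 (-1.77), Meis2 (-1.73), Ndnf (-1.58), Zg16 (-1.54), Gdf10 (-1.43), a ligand of the TGF-beta family, Lox (-1.42), which crosslinks collagen, and Col1a1 (-1.41). The smallest margins were those of Lox, at 6.88, 7.11 and 7.05 and then 4.68 to 6.83 (median 5.24). Its adjusted p was 0.0365 in limma, and the call was lost in 9 of 21 alternatives, among them without any 1 male of 5 dpp (adjusted p 0.0697, 0.130 and 0.115 in limma) and without male 5, 6, 7 or 8 of 7 dpp (0.0543, 0.0586, 0.0575 and 0.0575). Males 1 to 3 of 7 dpp lay at 6.14 to 6.83 and the other 5 at 4.68 to 5.28, and with males 1 to 3 alone the change of Lox was -0.45 and that of Gdf10 -0.63. The call of Gdf10 was lost in 4, among them without male 2 or male 3 of 5 dpp, with adjusted p of 0.0614 and 0.108. Without male 2 of 5 dpp, Ndnf (adjusted p 0.0988), Zg16 (0.0806) and this probe set of Col1a1 (0.0612) lost their calls, and without male 3 they had 0.0917, 0.0661 and 0.0593, and Col12a1 0.0618.

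Sertoli cell genes moved in both directions. Of 30 genes 25 were tested, and 2 (8%) were called higher and 5 (20%) lower, beside 2.96% and 2.62% of all probe sets. The median change was -0.17. Cldn11, the claudin of the tight junctions between Sertoli cells, rose from 6.86, 5.68 and 5.48 to 7.07 to 8.06 (median 7.44), a change of 1.47 (SE 0.26, adjusted p 0.00504 in limma). Gata1, a zinc finger factor that Sertoli cells start to make in the postnatal testis, rose by 0.66, with 4.10, 3.12 and 3.24 at 5 dpp and 3.88 to 4.35 (median 4.18) at 7 dpp, so that male 1 of 5 dpp overlapped with the older males. The genes that fell were Krt8 (-1.15), a keratin of immature Sertoli cells, Ptgds (-0.94), a prostaglandin D synthase, Hsd17b1 (-0.91), a steroid dehydrogenase, Inhba (-0.84), the activin beta subunit, and Gdnf (-0.64), the ligand that maintains spermatogonial stem cells. Gdnf was at 5.97, 6.05 and 6.08 and then at 4.89 to 5.89 (median 5.35), with an SE of 0.16 and an adjusted p of 0.0175 in limma. Inhba was at 7.73, 8.38 and 8.14 and then at 6.76 to 7.54 (median 7.30). The groups of Ptgds and of Hsd17b1 overlapped. The number called lower was 0 without male 2 of 5 dpp and 1 without male 3 of 5 dpp. Gata1 had adjusted p of 0.133 and 0.113 in limma without these males, and Gdnf a change of -0.57, under the fold threshold, without male 5 of 7 dpp. With males 1 to 3 of 7 dpp alone, the number called lower was 1. In that setting Cldn11 (1.19, adjusted p 0.0654 in limma), Gata1 (0.73, 0.0998) and Krt8 (-0.67, 0.119) were not called. The identity factors Sox9 (0.07, SE 0.18) and Wt1 (0.22, SE 0.10), the FSH receptor gene Fshr (-0.17, SE 0.10) and Amh, the anti-Mullerian hormone gene (-0.42, SE 0.21), were not called. Krt18, which pairs with Krt8 in filaments, had -0.79 (SE 0.30, adjusted p 0.0776 in limma).

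In the Leydig list 11 of 18 genes were tested, and 2 (18.2%, beside 2.62% of all probe sets) were called lower, Cyp11a1 (-0.60), the enzyme that cleaves the cholesterol side chain, and Ptgds, which the Sertoli list also holds. Without male 1 or 3 of 7 dpp, or male 2 or 3 of 5 dpp, 1 of them was called. Cyp11a1 was under the fold threshold also without male 1 of 5 dpp (-0.53) or male 2 of 7 dpp (-0.57). Star and Cyp17a1 ranged at 7 dpp from 4.19 to 7.08 and from 6.25 to 8.96, and their changes of 0.23 (SE 0.52) and -0.16 (SE 0.48) were not called. In the myoid list 1 of 11 tested genes (9.09%), Actg2 (-0.99), was called lower, a call lost without male 2 or 3 of 5 dpp (adjusted p 0.0781 and 0.119 in limma) and with males 1 to 3 of 7 dpp alone, where the change was -0.42, and Acta2 (-0.13, SE 0.10) and Myh11 (-0.06, SE 0.13) were not called. No gene was called among 9 of endothelium, 9 of macrophages, 15 of cholesterol synthesis, 12 of the immediate early and stress list, 27 of cytosolic ribosomal proteins and 24 of proliferation. In these 6 lists the medians were -0.27, -0.07, 0.18, 0.03, 0.04 and -0.20. All 9 endothelial changes were below 0, and 18 of the 24 of proliferation were. Mki67, the proliferation antigen, was at 8.41, 8.84 and 8.74 and then at 8.04 to 8.32 (median 8.23), without overlap, and its change of -0.45 (SE 0.09, adjusted p 0.00812 in limma) was under the fold threshold.

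Markers of tissue that may adhere to a dissected testis were read beside these results. None of the erythroid and skeletal muscle genes passed the signal minimum. Of the epididymal list 1 of 10 genes did, Spink8, with 4.85, 1.95 and 5.45 at 5 dpp and 1.54 to 5.87 (median 2.08) at 7 dpp. Of the adipose list 6 of 14 passed, and Cidea (0.96) and Dgat2 (0.81) were called higher (33.3%, beside 2.96% of all probe sets). Dgat2 was not called without male 2 or 3 of 5 dpp (adjusted p 0.0806 and 0.0603 in limma). The mean of the adipose list was 5.34, 4.24 and 5.41 at 5 dpp and 4.21 to 6.66 (median 5.4) at 7 dpp, ranges that overlap. Car3, an adipocyte carbonic anhydrase, had the largest SD of all genes tested among the males of 7 dpp, 2.63, with 0.69 in male 5 and 8.29 in male 1. The part of adipose tissue in the results was not tested.

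A larger share of X-linked probe sets was called than of those on other chromosomes, after the probe sets known to be polymorphic had been left out. Of 482 X-linked probe sets tested, 41 (8.51%) were called higher and 22 (4.56%) lower, against 2.82% and 2.48% of 15526 on autosomes other than chromosome 1. The SD of the changes was 0.47 on the X chromosome and 0.31 on those autosomes. On the heterozygous chromosome 1 the shares were 2.16% and 4.32% of 741 probe sets. These shares were not compared by a test. Of 20 X-linked genes of spermatogonia, a list written for genes known from these cells, 8 were tested, 7 (87.5%) were called higher and the median change was 1.65. Nxf2, Rhox13, Tex11 and Sox3 were already counted in the spermatogonial and meiotic lists above, so this list is not a separate result for them. Sox3, an SRY-related factor of spermatogonia, had 4.08, 3.16 and 3.86 and then 4.32 to 6.03 (median 5.43), Taf7l rose by 1.57 (SE 0.27), Rhox13 by 1.37 (SE 0.31) and Tex13b by 1.18 (SE 0.24), with an adjusted p of 0.0539 in limma for Tex13b without male 2 of 5 dpp. Pwwp3b had 0.35 and was not called. Nxf3 stayed below the signal minimum.

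The change in F1 was then set beside that of the other strains, which share no array with it. In B6 testes, 4.16% of the probe sets tested were called higher and 4.21% lower at 7 dpp, and in B6-ChrXTMSM testes 0.278% and 0.562%. In MSM testes the shares were 7.59% and 7.13%, and in testes of B6-ChrXMSM 1.33% and 1.15%. These strains had 3 males at 7 dpp and F1 had 8, so the shares rest on unlike numbers of arrays. With replicates 1 to 3 of 7 dpp alone, F1 had 487 probe sets called higher and 197 lower. Markers of adhering tissue moved with age in B6. The adipose list had a median change of -1.48 there, with 4 of 6 genes called lower and list means of 7.69, 7.15 and 5.11 at 5 dpp and 4.17 to 4.49 at 7 dpp, and Spink8 fell by 2.95. The part of these in the B6 values was not tested. The median change of the germ cell and piRNA list was 0.59 in MSM and 1.18 in B6-ChrXMSM, with 9 of 18 and 12 of 17 genes called higher. Of the genes tested in both F1 and B6, 16 of 18 in the germ cell and piRNA list and 11 of 15 in the meiotic list were called higher in B6. In B6-ChrXTMSM, 17 genes of the germ cell and piRNA list and 13 of the meiotic list were tested. Of the differentiating and undifferentiated spermatogonial lists, 12 and 11 were tested there. None of the genes of these 4 lists was called in B6-ChrXTMSM. Stra8 rose by 1.71 in B6 and had a change of 0.08 in B6-ChrXTMSM. Crabp1 had 2.28 and 0.38, Sycp3 1.71 and 0.21, Ddx4 0.74 and -0.06, and Kit 1.12 and 0.06. The collagen list had median changes of -0.62 in B6 and -0.41 in B6-ChrXTMSM, and 11 and 6 genes called lower. Cbln1, in contrast, fell by 3.84 in B6 and had -0.40 in B6-ChrXTMSM.

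Whether the changes differ was tested by the strain by age term of limma over the 4 groups. Against B6, 2 of 17104 probe sets were called (0.0117%), with 1124 at an unadjusted p under 0.05 (6.57%). Leaving out 1 of the 17 males gave from 0 to 9 more positive calls. In the germ cell and piRNA list the median difference, F1 change minus B6 change, was 0.23, and the lowest adjusted p was 0.740. Against B6-ChrXTMSM, 1 of 16911 probe sets was called with a more positive change in F1 (0.00591%) and 2 with a more negative one (0.0118%), while 2533 (15%) had an unadjusted p under 0.05. The median difference in the germ cell and piRNA list was 1.32, and 17 of its 18 genes had an unadjusted p under 0.05, but the lowest adjusted p was 0.139, so that none was called. Stra8 differed by 2.51 (adjusted p 0.139 in limma), Crabp1 by 2.52 and Cbln1 by -2.70 (adjusted p 0.182 in limma). This count rested on single males. Without male 4 of 7 dpp, 89 probe sets had a called difference with a more positive change in F1 and 15 with a more negative one, and without male 3 of 7 dpp the counts were 12 and 23. Without male 1 of 5 dpp they were 9 and 14. Of the 2 more negative calls, 0 were left without male 2 of 5 dpp or male 3 of 7 dpp of B6-ChrXTMSM.

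**Figure D4:**
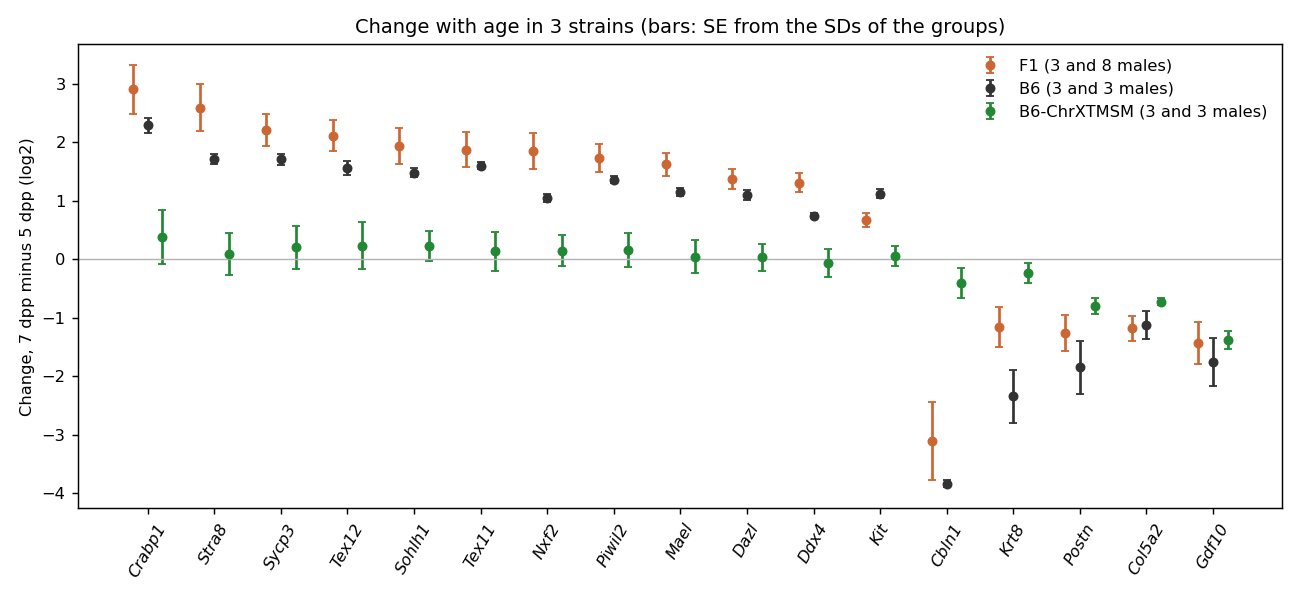
Change between 5 and 7 dpp (log2, 7 dpp minus 5 dpp) of 17 genes named in the text, in F1 (orange), B6 (black) and B6-ChrXTMSM (green) testes. Points are differences of group means and bars their standard errors from the SDs of the groups. The germ cell genes from Crabp1 to Kit lie above 0 in F1 and B6 and near 0 in B6-ChrXTMSM, and Postn, Col5a2 and Gdf10 lie below 0 in all 3 strains.

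The levels at which the strains started were not alike. The mean of the germ cell and piRNA list at 5 dpp ran from 4.39 to 4.67 in F1, from 5.02 to 5.18 in B6 and from 4.69 to 5.03 in B6-ChrXTMSM. At 7 dpp it ran from 5.25 to 6.34, from 6.06 to 6.18 and from 4.70 to 5.42. F1 males of 5 dpp were thus below both other strains in this list. At 7 dpp the 8 F1 males spread over a range that held all 3 B6 males and overlapped with that of B6-ChrXTMSM. The F1 median at 7 dpp, 5.84, lay below the lowest B6 male, at 6.06. These levels are given as a description, and no test was run on them.

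The called differences concerned single probe sets. For Nfe2l2, which encodes the antioxidant factor NRF2, the fainter of its probe sets measured 2.65 to 2.75 in F1 at 5 dpp and 3.32 to 3.92 at 7 dpp, while in B6-ChrXTMSM it was 3.63 to 4.05 and then 2.92 to 3.24. The F1 change exceeded that of B6-ChrXTMSM by 1.75 (SE 0.18, adjusted p 0.000619 in limma) and that of B6 by 1.07 (SE 0.16, adjusted p 0.0282 in limma). Its levels lay about the signal minimum, and the brighter probe set of the gene differed by 0.08 (adjusted p 0.684 in limma). Ctsc, the gene of the lysosomal protease cathepsin C, had an F1 change of -0.50 against 0.88 in B6-ChrXTMSM, a difference of -1.38 (SE 0.21, adjusted p 0.0278 in limma). Clk4, a kinase of splicing factors, differed by -0.65 (SE 0.09, adjusted p 0.00905 in limma), and its second probe set by -0.35 (adjusted p 0.270 in limma). The transcript A330076H08Rik had a change of -0.17 in F1 (3.91 to 4.39 at 5 dpp and 3.46 to 4.32 at 7 dpp) and of -2.09 in B6 (4.17 to 4.61 and then 2.12 to 2.54), a difference of 1.92 (SE 0.26, adjusted p 0.0165 in limma). It has a clone name and this probe set of Nfe2l2 a low signal, which puts both outside the rule by which genes were named, and they were chosen after their values were seen because 5 differences were called in all. When each of 17 males was left out in turn, the difference of Nfe2l2 against B6-ChrXTMSM was called every time, with adjusted p of up to 0.00510 in limma. The other calls were less stable. The difference of Clk4 was not called without 2 of the males (adjusted p up to 0.0639), that of A330076H08Rik without 5 (up to 0.110), that of Nfe2l2 against B6 without 9 (up to 0.180) and that of Ctsc without 13 (up to 0.167). The sizes of the differences ranged from -0.68 to -0.63 for Clk4, from 1.79 to 2.04 for A330076H08Rik, from 1.02 to 1.11 for Nfe2l2 against B6 and from -1.49 to -1.27 for Ctsc.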

How the data were processed

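The deposited table holds log2 signals that the authors computed by RMA in GeneSpring GX (version not given in the sources used here) from Affymetrix mouse expression arrays, 1 per male. RMA corrects background, normalizes quantiles over the arrays and summarises probes, which compresses changes at low signal and forces equal distributions. Precision is limited by the number of arrays.

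Samples were grouped by their labels. Probe sets were named through the platform annotation with symbols updated through gene identifiers: 34958 of 45101 had 1 gene, 932 several and 9211 none, and 34728 with 1 gene on a placed autosome or on X were used. The 1366 polymorphic probe sets listed by the study for chromosomes 1 and X were left out, although both ages share the genotype. Those whose signal averaged over log2 of 10 in 1 or more of the groups compared were fitted with lmFit and eBayes (limma 3.58.1, R 4.3.3), with the 8 males of 7 dpp as 1 group against the 3 of 5 dpp, and with the 4 groups of 2 strains for the strain by age term. Calls took 2 thresholds together, 0.05 for the Benjamini-Hochberg adjusted p and 1.5 for the fold. Replicates are separate males, and p-values measure the spread between them. Tested on simulated data for the comparison of 7 with 5 dpp (16749 probe sets), the fit recovered 46.3% of changes of 1.5-fold, 97.0% of 2-fold and 98.5% of 4-fold, with 9 wrong calls. The simulated errors were independent between probe sets, with 1 variance for both ages. Variation shared by many probe sets of an array was not simulated, so these figures do not cover it.

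Named were the 10 largest rises and falls among calls whose groups do not overlap, with a group mean above log2 of 20, 1 probe set per gene and clone or predicted names left out, 44 key genes, every called list member and the called strain by age terms that met the same conditions on name and signal. Key genes and list members used the probe set of the highest mean. The members and the gene lists, written from general knowledge, were chosen with earlier results of these data known. Alternatives were another or no filter, polymorphic probe sets kept, subtracted medians, array weights, robust eBayes, 1 fit over all groups, replicates 1 to 3, a replicate block and each array left out. Leaving out males 1 and 2 of 7 dpp together was chosen after seeing the data. Promoters are RefSeq's (GRCm38.p6), the first entry listed for each gene. Arrays of other strains were not analysed here beyond the comparisons named.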

Additional observations from a re-analysis of the deposited data

Results flagged for a closer look

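Spink8, the only tested gene of the epididymal list, was at 5.87 in male 3 of 7 dpp against 1.54 to 3.5 in the other 7 males, a gap of 0.547 of the range, above Dixon's critical ratio of 0.526 for 8 arrays. It was the only group of values with such an array among 121 examined, of which chance gives about 5%. The genes with a called difference between F1 and another strain in their change with age were A330076H08Rik (1.92 against B6), Nfe2l2 (1.07 against B6 and 1.75 against B6-ChrXTMSM), Clk4 (-0.65 against B6-ChrXTMSM) and Ctsc (-1.38 against B6-ChrXTMSM), each by the strain by age term of limma.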

How the results depend on the processing

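Of 84 named probe sets with a call (82 genes), 47 were tested and called under every one of 21 alternatives. Another 7 were below the filter in 1 or more alternatives, and 4 of these were called wherever tested. Against 495 probe sets called higher and 439 lower at 7 dpp, replicates 1 to 3 of 7 dpp alone gave 487 and 197, array weights 662 and 729, and leaving out 1 male 234 to 575 and 185 to 638. A minimum mean of log2 of 20 gave 354 and 328, no filter 654 and 538, kept polymorphic probe sets 513 and 448, and 7 dpp males 1 and 2 left out together, chosen after seeing the data, 462 and 523. The replicate block over replicates 1 to 3 gave 575 and 309. The labels do not say that the numbers pair the males. Deviations from the group mean correlated at 0.30, 0.01 and 0.39 between males of the same number, and at -0.38 to 0.30 between males of different numbers. With 3 males per age these values cannot decide whether the numbers pair them. The cause of the shifts in these counts was not tested. The strain by age term against B6, with 2 probe sets more positive and 0 more negative in F1, gave 1 and 1 with the replicate block, 1 more negative with replicates 1 to 3, 1 and 1 with 1 fit over all groups, 101 and 151 with array weights, and 0 to 9 and 0 to 1 without 1 male. Against B6-ChrXTMSM, with 1 and 2, it gave 4 and 0 with the replicate block, 3 and 1 with replicates 1 to 3, 102 and 33 with 1 fit, 471 and 418 with array weights, and 1 to 89 and 0 to 23 without 1 male. The sign turned only in genes without a call. Leaving out 1 male gave Etv5 changes of -0.13 to 0.075 (0.0030 without male 1 of 7 dpp), Sox9 -0.11 to 0.29, Star -0.21 to 0.72, Cyp17a1 -0.44 to 0.21 (0.12 without male 2 of 7 dpp) and Myh11 -0.17 to 0.029. Without males 1 and 2 of 7 dpp, Etv5 had 0.026 and Cyp17a1 0.18. With the replicate block and with replicates 1 to 3, Star had -0.44, Acta2 0.018 and Myh11 0.14. With array weights, Cyp17a1 had 0.18 and Myh11 0.013. Changes of 1.5-fold were recovered in 46.3% of simulated cases. A call also needs an estimate of at least 1.5-fold, so this share follows largely from the threshold and does not measure power. Changes under 1.5-fold are not called by this rule, so that small changes can be missed.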

Other observations

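Several genes had wide ranges among the 8 F1 males of 7 dpp. Adgrg2, which encodes an adhesion receptor known from the epididymis, lay at 4.21, 4.08 and 3.99 in males 1, 2 and 3 and between 1.55 and 2.04 in the other 5. Prom1, the gene of the membrane protein prominin, lay at 4.42, 4.41 and 4.29 in males 1, 2 and 3 and between 2.29 and 2.94 in the others. Gbp2, which was not among the groups of values examined for an outlying array, lay at 5.43 in male 5. It was between 2.86 and 3.33 in the other males. Fabp4, a fatty acid binding protein of adipocytes, ranged from 1.43 in male 5 to 6.46 in male 1, and male 5 was also lowest and male 1 highest for Car3. Some genes divided males 1 to 4 from males 5 to 8. Bcas2 lay at 2.63 to 3.86 and then 4.69 to 5.44, Rbm39 at 5.13 to 5.91 and then 3.44 to 3.81, and Acp1 at 4.17 to 5.21 and then 5.96 to 6.25. Hnrnpab lay at 9.71 to 9.89 in males 1 to 3 and 8.04 to 8.66 in the others. The SDs of these 4 genes at 5 dpp were 0.32, 0.24, 0.37 and 0.11. The cause was not tested.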
